A study of Mus musculus with 2 samples.

Results

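The genes described here encode 9 mitochondrial enzymes or enzyme subunits of the citric acid cycle. They are Cs, Idh3a, Idh3b, Idh3g, Ogdh, Suclg1, Sucla2, Fh1 and Mdh2. These were chosen by symbol as a fixed list of cycle enzymes, with earlier results of these data known. All 9 were found among the 43346 mouse genes of the deposited tables. Each reached 1 TPM, the unit of relative abundance per transcript length used below, in both libraries, and that level is what detected means here.

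The data are 2 RNA-seq libraries from livers of healthy B6NCrl mouse embryos, and both belong to 1 group with no second condition. The embryos were 11.5 days old, males and females were pooled in each replicate, and the label of biological replicate 1 names 109 embryos while that of replicate 2 gives no number. Total RNA above 200 bases was extracted with the mirVana kit, and 1 cell-equivalent of it, with spike-in RNAs, entered a SmartSeq library. The assay is labelled single-cell RNA-seq although the source is pooled tissue, so fewer cells of a type and less RNA per cell cannot be told apart.

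In each turn of the cycle the acetyl group of acetyl-CoA is joined to oxaloacetate and oxidised to carbon dioxide, and the electrons pass to NADH and to the respiratory chain. Intermediates also leave the cycle, citrate for lipid synthesis and succinyl-CoA for haem synthesis. The liver at this stage houses both hepatoblasts, the precursors of hepatocytes, and large numbers of developing red cells, whose haem synthesis starts from succinyl-CoA in mitochondria.

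Replicate 1 held 33289699 estimated reads and replicate 2 held 32607453, and spike-ins took 5.83% and 7.68% of their TPM. All 10 erythroid markers were detected in both libraries, with summed levels of 29917 TPM in replicate 1 and 28410 TPM in replicate 2. Of 10 hepatoblast markers, 9 were detected in both libraries, with sums of 10214 and 8838 TPM. Hnf4a, a hepatocyte transcription factor, was the exception at 34.8 TPM in replicate 1 and 0 in replicate 2. With 2 libraries of 1 group, differences below are given as sizes with no test.

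Cs, citrate synthase, which joins acetyl-CoA to oxaloacetate in the first step, lies on the plus strand of chromosome 10 (128337734 to 128362479, mm10). It had 171 TPM from 13765 reads in replicate 1 and 139 TPM from 11170 reads in replicate 2, a mean of 155 ± 22.1 TPM (SD, n = 2). Replicate 1 was the higher library, by a ratio of 1.22. A single transcript, Cs-201, was annotated in the tables and held all of its reads. Cs was the only member with near-identical copies among annotated transcripts, at 90% identity or more over at least 100 bases. The copy Csl, which matched at 90.4% over 1617 bases, held 6 reads in replicate 1 and 10 in replicate 2, or 0.0436% and 0.0895% of the number of Cs reads. A processed pseudogene, Gm48254, matched at 91.9% over 469 bases and had no row of its own in the tables used here.

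NAD-dependent isocitrate dehydrogenase, which makes 2-oxoglutarate and NADH from isocitrate, is built of a catalytic alpha subunit with beta and gamma subunits. Idh3a, the alpha subunit gene (chromosome 9, 54586334 to 54604661, plus strand), had 211 TPM in replicate 1 and 106 TPM in replicate 2, from 14392 and 7160 reads. Idh3b, the beta subunit gene (chromosome 2, 130279309 to 130284547, minus strand), had 115 TPM from 3931 reads in replicate 1 and 144 TPM from 6420 reads in replicate 2. Idh3g, the gamma subunit gene (chromosome X, 73778963 to 73786897, minus strand), had 258 TPM from 8352 reads in replicate 1 and 226 TPM from 7941 reads in replicate 2. The means were 159 ± 74.6 TPM for Idh3a, 130 ± 20.8 for Idh3b and 242 ± 22.5 for Idh3g (SD, n = 2 each). By whole-gene TPM Idh3g was the highest of the trio in both libraries, while on protein-coding transcripts alone Idh3a, at 211 TPM, was above Idh3g, at 125 TPM, in replicate 1.

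The ratio of Idh3a to Idh3b was 1.84 in replicate 1 and 0.732 in replicate 2, so the libraries fell on either side of equal levels. Idh3a over Idh3g was 0.820 in replicate 1 and 0.468 in replicate 2, and on protein-coding transcripts alone 1.70 and 0.498, which put its mean at 1.10 against 0.644 for whole genes. Idh3b over Idh3g was 0.446 in replicate 1 and 0.639 in replicate 2. Summed over the trio the libraries were closer, at 584 TPM in replicate 1 and 476 TPM in replicate 2, a ratio of 1.23.

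Part of the reads of the beta and gamma subunit genes was assigned to transcripts that are not annotated as coding. Idh3b-204, a transcript annotated for nonsense-mediated decay (the route that removes messages with a premature stop) with an intron inside what is the last exon of Idh3b-201, held 30.7% of the TPM of Idh3b in replicate 1 and 0% in replicate 2. It is only 452 bases long and held 368 reads in replicate 1 and none in replicate 2, against 3557 and 6412 reads for the leading transcript Idh3b-201. On protein-coding transcripts alone Idh3b had 79.3 TPM in replicate 1 and 144 TPM in replicate 2.

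For Idh3g, the only protein-coding transcript in the tables, Idh3g-201, held 48.4% of the gene's TPM in replicate 1 and 94% in replicate 2. The 6 transcripts annotated as retained introns, which keep sequence normally spliced out, held 37.8% of Idh3g reads in replicate 1 and 0.424% in replicate 2. The largest of these by TPM, Idh3g-208, stood at 45.2 TPM in replicate 1 and 0.28 in replicate 2, and Idh3g-209 at 30.7 and 0.06 TPM. The coding level was thus lower in replicate 1, at 125 TPM, than in replicate 2, at 212 TPM, the reverse of the order for the whole gene.

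Idh3g shares its start region with Ssr4, a gene for a subunit of the signal sequence receptor at the endoplasmic reticulum, which runs the other way with a start site 131 bases off. Ssr4 had 390 TPM in replicate 1 and 121 TPM in replicate 2. The 130 bases between the start sites (GRCm38.p6, chrX:73786898-73787027, read on the strand of Idh3g, RefSeq) are shown because both genes start from them. Capitals mark AAGATGGC, letters bound by YY1, and CCGGAAG, letters bound by ETS factors such as GABPA.
Idh3g to Ssr4 interval: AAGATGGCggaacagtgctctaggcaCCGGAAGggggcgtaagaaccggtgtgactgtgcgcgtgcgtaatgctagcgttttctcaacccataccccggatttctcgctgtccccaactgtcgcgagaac

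Ogdh encodes the first component of the 2-oxoglutarate dehydrogenase complex, which makes succinyl-CoA, and lies on the plus strand of chromosome 11 (6291633 to 6356642). It was the lowest of the members by mean, though Sucla2 was lower in replicate 1, and nearly the same in the libraries, at 63.2 TPM in replicate 1 and 63.7 TPM in replicate 2, a mean of 63.4 ± 0.389 TPM (SD, n = 2). Its reads were less alike, 7499 in replicate 1 and 5464 in replicate 2. The match in TPM included Ogdh-205, a retained-intron transcript of 779 bases whose last exon runs past the end of exon 2. This transcript had 0 TPM in replicate 1 and 21.1 TPM from 421 reads in replicate 2, or 33.1% of the gene's TPM there. Without it, the coding transcripts of Ogdh gave 63.2 TPM in replicate 1 and 42.6 TPM in replicate 2.

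A choice of exon 4 separates the main coding transcripts of Ogdh, and in human OGDH alternative exons in this stretch have been linked to how strongly calcium activates the enzyme. Ogdh-201 uses an exon of 103 bases (chr11:6316978-6317080) and Ogdh-202 one of 91 bases (chr11:6316765-6316855). Ogdh-201 had 6790 reads in replicate 1 and 4429 in replicate 2, and Ogdh-202 had 706 and 614. Ogdh-202 thus held 9.42% of the gene's TPM in replicate 1 and 8.17% in replicate 2, where Ogdh-205, which lacks exon 4, enters the total. Of the gene's reads Ogdh-202 held 9.42% in replicate 1 and 11.2% in replicate 2, so no direction is given for its share. Ogdh-203 and Ogdh-204 held no reads in either library. Ogdh-201 and Ogdh-202 also differ in their first exon and in the end of exon 23, so their reads do not count exon 4 choice alone. The alternative forms of exon 4 are shown (GENCODE M21 transcripts, mm10, plus strand), with capitals at the 54 of 90 aligned bases that are the same in both (60%).
Ogdh-201 exon 4: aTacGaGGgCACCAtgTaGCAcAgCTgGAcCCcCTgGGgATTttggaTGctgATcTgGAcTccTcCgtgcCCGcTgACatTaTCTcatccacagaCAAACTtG
Ogdh-202 exon 4: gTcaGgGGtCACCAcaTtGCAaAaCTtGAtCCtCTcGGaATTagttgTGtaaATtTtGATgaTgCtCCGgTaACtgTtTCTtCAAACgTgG

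Other components of the complex were read beside Ogdh. Dlst, the succinyltransferase core, had 51.1 TPM in replicate 1 and 50.6 TPM in replicate 2, so Ogdh over Dlst was 1.24 and 1.26. On coding transcripts alone that ratio was 1.24 in replicate 1 and 0.843 in replicate 2, so its match between the libraries rested on Ogdh-205. Dld, the dehydrogenase subunit also used by the pyruvate complex, had 162 TPM in replicate 1 and 35.3 TPM in replicate 2. Ogdh over Dld was therefore 0.389 in replicate 1 and 1.81 in replicate 2.

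Succinyl-CoA synthetase, the step that makes GTP or ATP, pairs the alpha subunit from Suclg1 with a beta subunit from Sucla2 (ATP-forming) or Suclg2 (GTP-forming). Suclg1 (chromosome 6, 73248382 to 73276911, plus strand) had 253 TPM from 10543 reads in replicate 1 and 117 TPM from 4876 reads in replicate 2, a mean of 185 ± 95.8 TPM (SD, n = 2). Sucla2 (chromosome 14, 73525319 to 73596142, plus strand) had 33.5 TPM from 1575 reads in replicate 1 and 163 TPM from 8052 reads in replicate 2, a mean of 98.2 ± 91.4 TPM (SD, n = 2). Partners of 1 enzyme thus stood apart in opposite directions, Suclg1 higher in replicate 1 and Sucla2 4.86-fold higher in replicate 2.

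Suclg2, the third subunit gene and not 1 of the 9, had 74.4 TPM in replicate 1 and 70.5 TPM in replicate 2. Sucla2 was below Suclg2 in replicate 1 and above it in replicate 2, with ratios of 0.450 and 2.31. Suclg1 over Sucla2 was 7.55 in replicate 1 and 0.721 in replicate 2, the widest gap of the 10 ratios computed. Against both beta subunit genes together, Suclg1 stood at 2.34 in replicate 1 and 0.503 in replicate 2. The sum of all 3 subunit genes was nearly level, at 361 TPM in replicate 1 and 351 TPM in replicate 2, a mean of 356 ± 7.16 TPM (SD, n = 2).

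The gap in Sucla2 was carried by both of its coding transcripts. Sucla2-201 had 26.1 TPM in replicate 1 and 105 TPM in replicate 2, and Sucla2-203, which has the same coding exons and a longer last exon, had 7.26 and 57.2 TPM. Suclg1-201 held 99% of the TPM of Suclg1 in replicate 1 and 99.4% in replicate 2.

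The summed level of heart muscle markers was also higher in replicate 2, the library with more Sucla2. It was 50.2 TPM in replicate 1 and 282 TPM in replicate 2, with 6 of 10 markers at 0 in replicate 1 and 3 of 10, namely Myh7, Myl3 and Nppa, at 0 in both. Actc1, a cardiac actin, went the other way, at 43.5 TPM in replicate 1 and 30.3 TPM in replicate 2, and made up most of the sum in replicate 1. Mesenchymal markers summed to 252 TPM in replicate 1 and 503 TPM in replicate 2. Endothelial markers summed to 112 and 145 TPM, and macrophage markers to 429 and 171 TPM. Single genes of these lists went against their sums. Mesenchymal Pdgfrb had 1727 reads in replicate 1 and 1 in replicate 2. Pdgfra, at 1.78 and 0.03 TPM, and Des, at 36.2 and 23.5 TPM, were also higher in replicate 1. Endothelial Lyve1 had 44.6 TPM in replicate 1 and 22.6 TPM in replicate 2, and macrophage Adgre1 had 2.83 and 7.92 TPM. The part of these cell types in the differences of Sucla2, Suclg1 and Idh3a was not tested.

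Fh1, fumarase, which adds water to fumarate to give malate, lies on the minus strand of chromosome 1 (175600374 to 175625635). It had 160 TPM from 8189 reads in replicate 1 and 182 TPM from 9986 reads in replicate 2, a mean of 171 ± 15.6 TPM (SD, n = 2). Kmo, a gene on the other strand that overlaps Fh1 by 5255 bases, had no reads. The leading transcript Fh1-201 held 61.7% of the TPM in replicate 1 and 68.1% in replicate 2.

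Most of the rest of Fh1 was assigned to Fh1-205, a short annotated coding fragment of 542 bases that lacks exon 7 of Fh1-201. That exon is 204 bases long, a multiple of 3. Fh1-205 made up a share of the gene's TPM of 38.3% in replicate 1 and 31.7% in replicate 2, but it held only 800 and 750 reads, or 9.77% and 7.51% of the gene's reads, because TPM divides by the short length.

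Mdh2, mitochondrial malate dehydrogenase, which closes the cycle by making oxaloacetate and also serves the malate-aspartate shuttle, lies on the plus strand of chromosome 5 (135778480 to 135790398). It was the highest member in both libraries, at 638 TPM from 23568 reads in replicate 1 and 507 TPM from 18707 reads in replicate 2, a mean of 572 ± 92.2 TPM (SD, n = 2). Its ratio to Cs, the enzyme that uses its product, was 3.74 in replicate 1 and 3.64 in replicate 2, a mean of 3.69 ± 0.0682 (SD, n = 2). Mdh1, the cytosolic enzyme of the same reaction, had 408 TPM in replicate 1 and 86.6 TPM in replicate 2, so Mdh2 over Mdh1 was 1.56 and 5.86.

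Nearly a constant share of Mdh2 was assigned to a form that lacks exon 2. Mdh2-203, annotated for nonsense-mediated decay, had 192 TPM from 5764 reads in replicate 1 and 146 TPM from 4343 reads in replicate 2. It held 30.2% and 28.8% of the gene's TPM, a mean of 29.5% ± 0.997 (SD, n = 2), and 24.5% and 23.2% of its reads. The skipped exon has 169 bases (chr5:135783305-135783473), which is no multiple of 3. Coding transcripts alone put Mdh2 at 443 TPM in replicate 1 and 360 TPM in replicate 2, and its ratio to Cs at 2.60 in replicate 1 and 2.58 in replicate 2. The deposited tables give estimates per transcript and no counts of reads across junctions. Exon 2 is shown in capitals between 30 bases of each neighbouring exon, followed by the join that replaces it (GENCODE M21, mm10, plus strand).
Mdh2-201 exon 2: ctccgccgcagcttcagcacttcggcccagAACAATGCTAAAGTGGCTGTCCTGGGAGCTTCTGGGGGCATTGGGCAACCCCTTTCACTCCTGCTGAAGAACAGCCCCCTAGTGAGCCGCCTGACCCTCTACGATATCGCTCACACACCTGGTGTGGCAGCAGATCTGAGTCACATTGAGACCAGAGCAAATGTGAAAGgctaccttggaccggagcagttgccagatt
Mdh2-203 junction: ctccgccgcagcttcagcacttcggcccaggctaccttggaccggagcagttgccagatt

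The members were all well expressed. Detection in both libraries held for 9 of 9, against 27.3% of 21474 protein-coding genes, but also for 99.2% of the 1909 genes whose mean TPM lay between those of Ogdh and Mdh2. Among genes averaging 1 TPM or more they ranked from percentile 78.9 (Ogdh) to 97.3 (Mdh2). Their median level was 7.28 on the log2(TPM + 1) scale, against 3.49 for all genes averaging 1 TPM or more. Together they held 1902 TPM in replicate 1 and 1648 TPM in replicate 2, or 0.190% and 0.165% of all TPM.

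**Figure D1:**
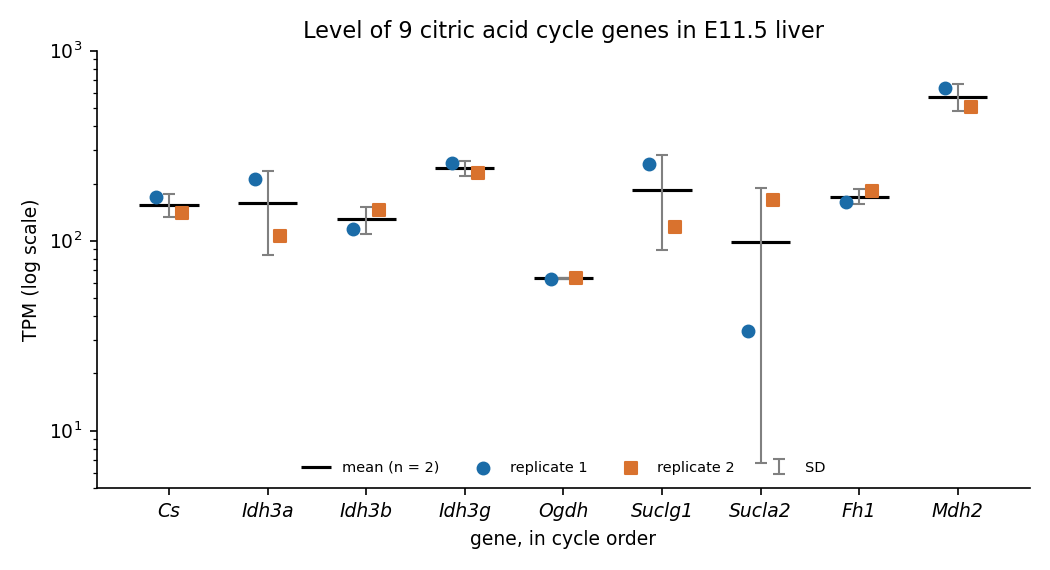
TPM (log scale) of the 9 genes in cycle order, with replicate 1 as circles, replicate 2 as squares, black bars for the mean of 2 libraries and grey bars for the SD. Mdh2 stands above the others in both libraries, and the widest gap between the libraries is that of Sucla2, at 33.5 TPM in replicate 1 and 163 TPM in replicate 2.

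By mean TPM the order was Mdh2, Idh3g, Suclg1, Fh1, Idh3a, Cs, Idh3b, Sucla2 and Ogdh, a span of 9.02-fold. Only 1 of the 8 neighbouring pairs, Mdh2 and Idh3g, was set apart, with both libraries of Mdh2 above both of Idh3g and means further apart than the sum of their SDs. The other 7 pairs did not differ beyond their spread, so the order of neighbours from Idh3g down to Ogdh is not fixed by these libraries. Pairs further apart in the order were not compared in this way. By whole-gene TPM both libraries of Idh3g lay above both of each lower gene except Suclg1. On coding transcripts alone the means were 401 TPM for Mdh2, 168 TPM for Idh3g and 52.9 TPM for Ogdh.

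Differences between the libraries were measured as log2 ratios of TPM + 1, replicate 1 over replicate 2, centred on the median of genes averaging 10 TPM or more. Past a 2-fold difference were 3 of the 9 genes, against a background of 51.1% of those 6801 genes (25.8% toward replicate 1 and 25.2% toward replicate 2) and 29.1% of the 1909 genes at like levels. The members' share is thus near that of genes at their own level. Suclg1 (1.13) and Idh3a (1.02) were past 2-fold toward replicate 1, as were 16.1% of genes at like levels, and Sucla2 (-2.22) toward replicate 2, as were 12.9%. Idh3a sat on the line, with 5 of 11 ways of computing the ratio placing it past 2-fold, whereas Suclg1 and Sucla2 were past it in all 11.

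The remaining 6 genes lay within 0.5 of 0, at 0.35 for Mdh2, 0.32 for Cs, 0.21 for Idh3g, 0.01 for Ogdh, -0.16 for Fh1 and -0.30 for Idh3b. The sign for Idh3g, Ogdh, Fh1 and Idh3b changed with the way of computing it, so no direction is given for them. The median absolute ratio was 0.32 for the members, 0.61 for genes at like levels and 1.03 for all genes averaging 10 TPM or more. The authors' credibility intervals of TPM, which cover the assignment and sampling of reads and not the spread between embryos or amplifications, did not overlap between the libraries for 8 of 9 genes. Ogdh was the exception, at 60.8 to 63.8 TPM in replicate 1 and 60.4 to 65.2 TPM in replicate 2. The same share was not computed for genes at like levels, so the count of 8 does not set the members apart.

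**Figure D2:**
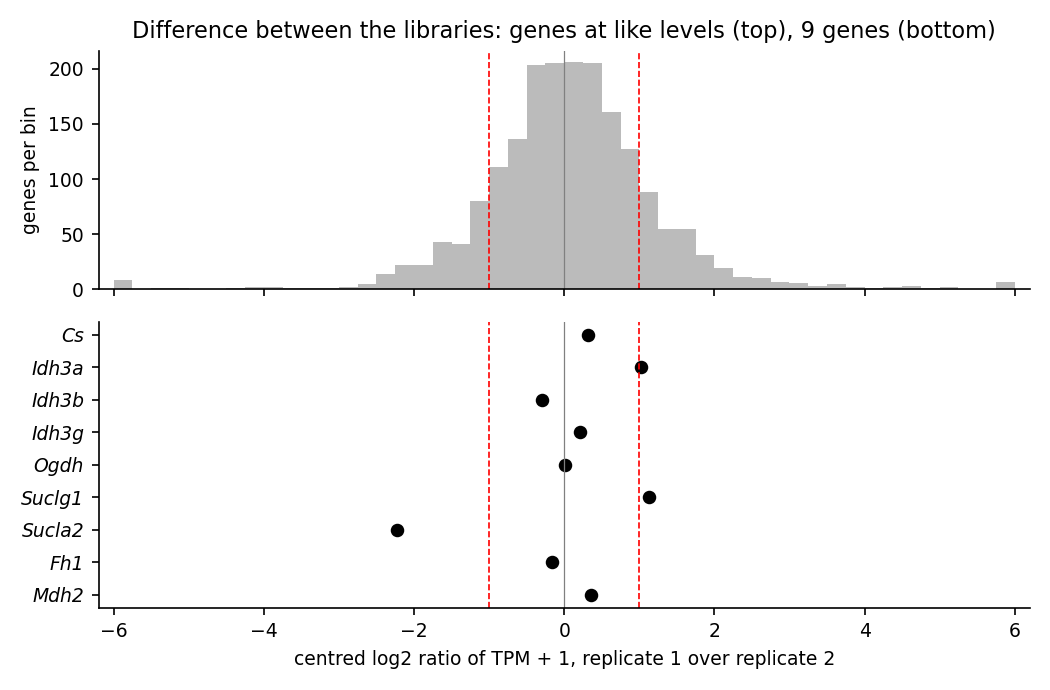
Centred log2 ratio of TPM + 1, replicate 1 over replicate 2, as the number of genes per bin for the 1909 genes at like levels (top, with values past 6 in the end bins) and as 1 point for each of the 9 genes (bottom). Dashed red lines mark a 2-fold difference, which Suclg1 and Idh3a pass on the right and Sucla2 on the left.

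**Figure D3:**
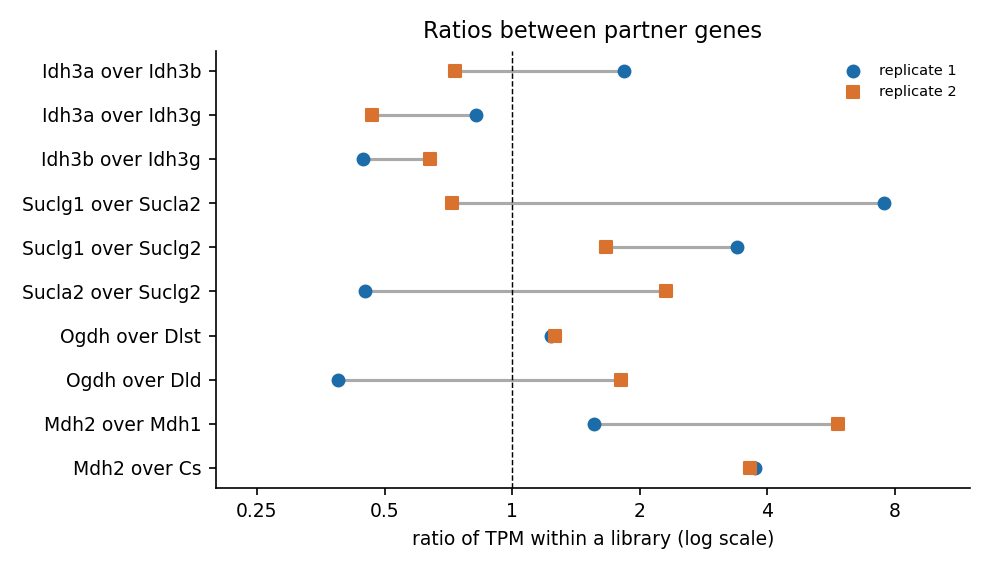
Ratios of TPM within each library (log scale) for 10 pairs of partner genes, with replicate 1 as circles and replicate 2 as squares. The ratios Ogdh over Dlst and Mdh2 over Cs nearly coincide on whole-gene TPM (on coding transcripts alone Ogdh over Dlst was 1.24 in replicate 1 and 0.843 in replicate 2), while Suclg1 over Sucla2 runs between 7.55 in replicate 1 and 0.721 in replicate 2.

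At the level of transcripts, 43 were annotated for the 9 genes in the tables. Of these, 14 reached 1 TPM in both libraries and 9 in 1 library alone. Cs and Idh3a had a single transcript each. All 7 members with several transcripts had the same leading transcript in both libraries, against 62.5% of 4445 genes averaging 10 TPM or more and 80.3% of 1417 at like levels. Behind the shared leading transcript, the second form was similar in share for Mdh2, Fh1 and Ogdh-202, and Idh3b-204 and Ogdh-205 had reads in 1 library alone.

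**Figure D4:**
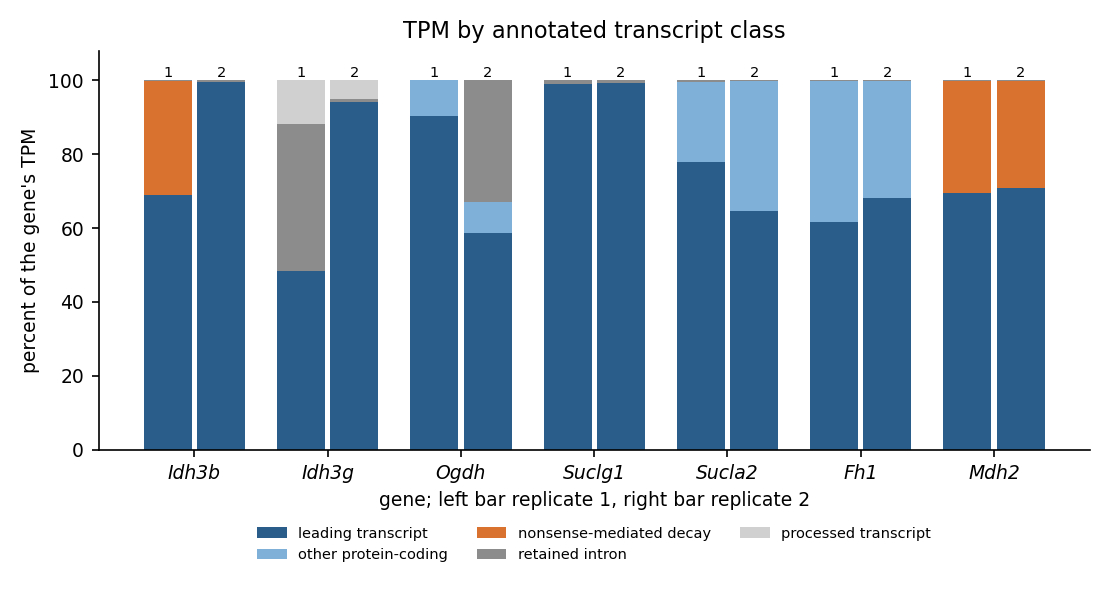
Percent of each gene's TPM by class of annotated transcript, for the 7 genes with several transcripts (left bar replicate 1, right bar replicate 2). The nonsense-mediated decay share of Mdh2 is alike in the libraries (30.2% and 28.8%), while the retained-intron share of Idh3g is seen mainly in replicate 1 and that of Ogdh in replicate 2.

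Upstream sequence was available for 8 of the 9 genes, all but Idh3a, as the 250 bases before the RefSeq start (GRCm38.p6). Both strands were searched for 8 motifs. The SP1 letters GGGCGG occurred in 5 of the 8 genes (Cs, Ogdh, Sucla2, Fh1 and Mdh2), against 35.4% of 27025 genes, and CCAAT in 4 (Cs, Idh3b, Ogdh and Fh1), against 37.5%. The MYC E-box CACGTG and the NRF1 core TGCGCA were found only upstream of Ogdh, against 6.86% and 7.36% of genes. CCGGAAG was found only upstream of Idh3g (7.83% of genes), as was AAGATGGC (1.83%). The ERR letters CAAGGTCA (1.51% of genes) and TATAAA (14.3%) were in none of the 8 windows. No motif searched lies within another, and a match gives letters alone, not a bound site.

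The window upstream of Mdh2 held the palindrome TCTCGCGAGA 3 times, at 190, 63 and 29 bases before the RefSeq start (chromosome 5, 135778649). This stretch was picked after the sequence had been read, as the 10-base palindrome most frequent there. It occurred at least once in 0.448% of genes, and 3 times or more in 2 of 27025 genes, Mdh2 included. Since it was picked for its frequency upstream of Mdh2, these shares are no test of how rare it is. The GENCODE start of Mdh2 (135778480) lies further upstream, so the nearer matches fall inside its first exon. Styxl1, which starts 95 bases away on the other strand, had no reads in either library. Whether it is the other gene with 3 matches or more was not checked.

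The other genes of the cycle were detected as well, 8 of 8 in both libraries, with a median level of 6.97 on the log2 scale against 7.28 for the members. Subunits of succinate dehydrogenase, the enzyme shared with the respiratory chain, were the highest. Sdhd had 477 TPM in replicate 1 and 411 TPM in replicate 2, Sdhb 392 and 393, and Sdha 225 and 197. Dld, given above, was past 2-fold toward replicate 1. Genes for assembly of succinate dehydrogenase averaged 4.56 to 14.9 TPM and differed between the libraries. Only 1 of 4 was detected in both, Sdhaf4 at 1.68 TPM in replicate 1 and 28.2 TPM in replicate 2. Sdhaf2 had 0.01 and 28.9 TPM, Sdhaf3 had 0 and 9.12, and Sdhaf1 had 15.4 and 0. Sdhaf4 and Sdhaf2, which averaged 10 TPM or more, were past 2-fold toward replicate 2.

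Cytosolic and NADP-linked counterparts of the members were all detected, 5 of 5. Idh2, the mitochondrial NADP-linked isocitrate dehydrogenase, had 366 TPM in replicate 1 and 330 TPM in replicate 2, above each Idh3 subunit gene in both libraries. Idh1, its cytosolic counterpart, had 58.4 and 74.6 TPM, and Mdh1 is given above. Aco1, the cytosolic aconitase, and Mdh1 were past 2-fold toward replicate 1, and Acly, which splits exported citrate for lipid synthesis, toward replicate 2. Among further paralogs 1 of 4 was detected in both libraries, Ogdhl, a relative of Ogdh, at 2.51 TPM in replicate 1 and 13.7 TPM in replicate 2. Csl had 0.11 and 0.18 TPM, and Dhtkd1 and Pdha2 had no reads.

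Genes that feed the cycle were detected in part. Of 13 genes of pyruvate entry 8 were detected in both libraries, and Pdhb, a subunit of pyruvate dehydrogenase, had the highest mean, at 268 TPM in replicate 1 and 225 TPM in replicate 2. The mitochondrial pyruvate carrier genes followed, Mpc2 at 322 and 102 TPM and Mpc1 at 138 and 256 TPM, so that Mpc2 was above Pdhb in replicate 1 and Mpc1 above it in replicate 2. Past 2-fold were 5 of the 9 genes of this list that averaged 10 TPM or more, against 51.1% of all genes at that level. Mpc2, Dlat, Pdk1 and Pdk3 were higher in replicate 1, and Pdp2, at 0 TPM in replicate 1 and 20.1 TPM in replicate 2, was higher in replicate 2. Pdk2, at 0 TPM in replicate 1 and 16.1 TPM from 519 reads in replicate 2, averaged less than 10 TPM and was not counted. Pcx, pyruvate carboxylase, which makes oxaloacetate directly, and Pdp1 had no reads in either library, and Pdk4 had 0 in replicate 1 and 0.01 TPM in replicate 2. A count of 0 allows up to 3 reads by counting error alone. That is 0.0901 CPM (reads per total) at the depth of replicate 1 and 0.092 at that of replicate 2. This limit leaves out the spread between the libraries, so it does not bound the level in the tissue. Pdp2 had 0 reads in replicate 1 and 1998 in replicate 2, and Slc25a12, given below, had 3875 and 0. Among 7 genes of glutamate and malate feeding 5 were detected in both libraries, led by Got2 (89.5 and 137 TPM), Glud1 (76.0 and 67.9 TPM) and Me2 (83.1 and 39.6 TPM). Me2 and Pck2 were past 2-fold toward replicate 1. Gls2 had no reads, and Me3 had 0.17 TPM in replicate 1 and 0 in replicate 2.

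Genes on routes out of the cycle and across the inner membrane were mostly present. Of 5 carriers 4 were detected in both libraries, the highest being Slc25a11, the 2-oxoglutarate carrier, at 95.3 TPM in replicate 1 and 173 TPM in replicate 2, and Slc25a1, the citrate carrier, at 110 and 132 TPM. Slc25a12, an aspartate-glutamate carrier, had 69.7 TPM in replicate 1 against 0 in replicate 2. Slc25a13, its close relative and the other carrier past 2-fold, had 14.1 TPM in replicate 1 against 50.6 TPM in replicate 2. For haem synthesis from succinyl-CoA, 3 of 3 genes were detected in both libraries. Alas2, the erythroid enzyme that joins succinyl-CoA to glycine, had 121 TPM in replicate 1 and 184 TPM in replicate 2, Alas1, its housekeeping form, 23.8 and 31.4, and Slc25a38, a mitochondrial glycine carrier and the only 1 of the 3 past 2-fold, 129 and 38.4. Of the hydroxyglutarate dehydrogenases, D2hgdh stood at 0.44 TPM in replicate 1 against 0 in replicate 2, and Adhfe1 at 0 against 0.28 TPM.

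Of 8 regulators of mitochondrial genes 4 were detected in both libraries. They were Tfam, which maintains mitochondrial DNA, at 132 TPM in replicate 1 and 157 TPM in replicate 2, Myc at 215 and 62.9, Gabpa at 72.4 and 46.8, and Nrf1 at 45.9 and 59.5. Myc was past 2-fold toward replicate 1, as was Pprc1, which had 36.2 TPM in replicate 1 and 0 in replicate 2. Ppargc1a, Ppargc1b and Esrra, coactivators and a receptor that drive mitochondrial genes in oxidative adult tissues, had no reads in either library.

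Both comparison lists stood above the members in level. The 15 glycolysis genes had a median of 9.08 on the log2 scale and the 36 complex I genes 8.30, against 7.28 for the members. All of their genes were detected in both libraries. Past 2-fold between the libraries were 3 of 9 members, 1 of 15 glycolysis genes and 3 of 36 complex I genes, and these counts are not matched for level.

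**Figure D5:**
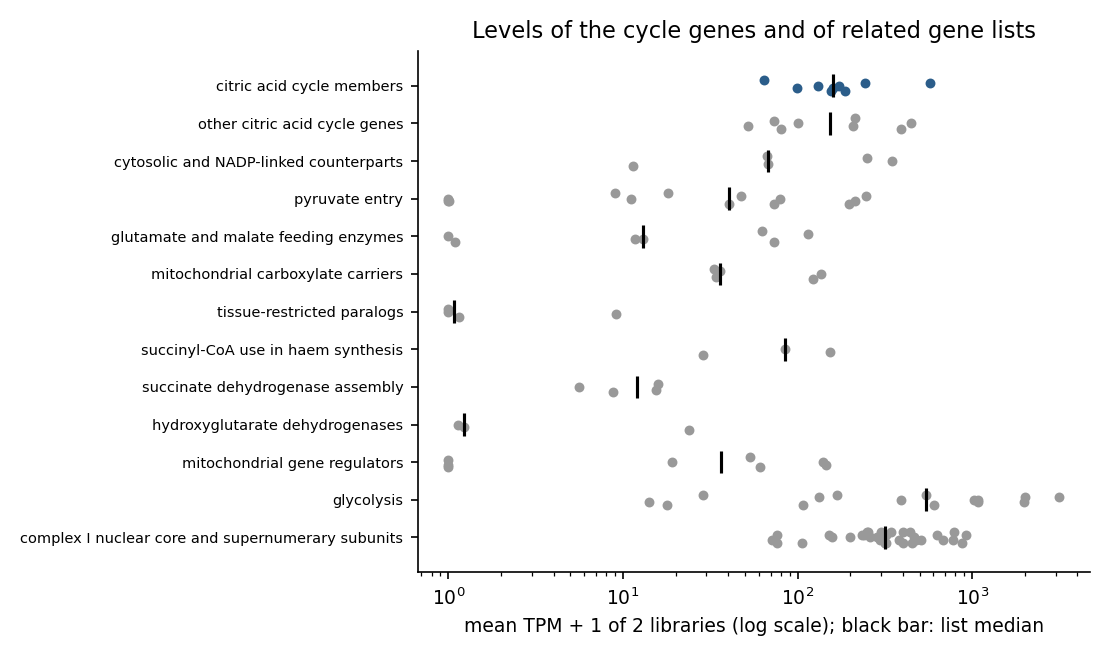
Mean TPM + 1 over 2 libraries (log scale) of each gene in the citric acid cycle members (blue) and in related lists (grey), with a black bar at each list's median. The members lie between 63.4 TPM (Ogdh) and 572 TPM (Mdh2), while pyruvate entry, feeding enzymes, paralogs and regulators reach down to genes without reads.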

How the data were processed

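Per the file headers, the deposited gene and transcript tables give the authors' expected counts, which are estimated reads and need not be whole. The authors divided these by effective length to give FPKM and TPM as deposited. The deposited percent gives each transcript's part of its gene's abundance, as the authors estimated it. A credibility interval of TPM, treated as a score, has its bounds in the deposited tables, beside posterior mean TPM. TPM was scaled by the authors over all 69691 rows, 97 spike-ins and 26248 rows with numeric identifiers included. Per the deposited descriptions, the assembly was mm10 with GENCODE annotation M4. For the aligner and quantification program nothing is stated (not given in the sources used here).

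Symbols, coordinates and transcript structures came from GENCODE release M21 by identifier without version, and 42462 of 43346 genes matched. Of the members' 43 transcripts, 42 had equal lengths in both releases (Cs-201 differed). Levels are TPM per library and mean ± SD over 2 libraries. Ratios used log2(TPM + 1), which understates differences of low genes, centred on the median of genes averaging 10 TPM or more. No test was run, since 2 libraries of 1 group allow none. Over 11205 genes with at least 20 reads, chi-square per degree of freedom between the replicates was 814, far above sampling noise, and the replicates were kept apart. The labels number the libraries as biological replicates, but RNA of 1 cell-equivalent was amplified, so spread between libraries may be technical.

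The 9 members, 12 other lists and 6 marker lists were chosen with earlier results of these data known. Named were all members, the 3 highest genes of each list, up to 3 genes under a TPM of 1 in both libraries, and genes past 2-fold. A few others that pair with a member were named after their values were seen. For glycolysis and complex I only summaries are given. A few items are not reported here. Scripts were tested on simulated data with known changes. Tools were Python 3.11.15, pandas 2.3.3, NumPy 2.4.6, Biopython 1.88 for exon alignment, BLAST 2.17.0 for copies and matplotlib 3.10.9.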

Additional observations from a re-analysis of the deposited data

How the results depend on the processing

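The count of members detected in both libraries was 9, and that of shared leading transcripts 7, in each alternative run. The count past 2-fold was 3 or 2 over 11 ways of computing it. Idh3a was the gene that crossed the line, between 0.92 (genes averaging 1 TPM or more used for centring) and 1.41 (centring on 40 spike-ins). Suclg1 ranged between 1.03 and 1.52 and Sucla2 between -2.38 and -1.83. Centring on spike-ins shifted the median of all genes by 0.39 on the log2 scale, and the share of calls among all genes that were higher in replicate 1 was then 62.4%, against 50.6% with median centring. On protein-coding transcripts alone, chosen after seeing the data, Idh3g was at -0.76 and Ogdh at 0.56. The median level ranged between 7.12 in FPKM and 7.42 without replicate 2, and was 7.18 without replicate 1. Mdh2 over Cs was 3.54 from expected counts per annotated length. Of the alternatives for single genes, 8 of 54 levels, 4 of 60 ratios and 6 of 90 log2 ratios, the last all of Idh3a, moved by more than the replicate spread or crossed the line. No paired analysis was possible because there was 1 group. Each member had at least 1575 reads in each library. Because RNA of 1 cell-equivalent was amplified, that number does not show how well a gene was sampled. Slc25a12, for example, had 3875 reads in replicate 1 and 0 in replicate 2. Transcripts with reads in 1 library alone rest on few, such as Idh3b-204 on 368 and Ogdh-205 on 421 reads.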
